A study of Sus scrofa with 6 samples.

Results

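The 10 genes described here are imprinted genes known for roles in fetal and placental growth, chosen by name: PEG10, SGCE, PHLDA2, CDKN1C, IGF2R, GRB10, MEST, PLAGL1, PEG3 and DLK1. A row belonged to the set when its pig Ensembl gene ID carried one of those symbols. All 10 were found among 20132 rows, of which 14062 could be matched to a symbol. The study compared lines of pig pre-gastrulation epiblast stem cells (pgEpiSC), derived from embryonic day 10 epiblast, with porcine embryonic fibroblasts (pEF), taken from fetuses at embryonic day 30. There were 4 pgEpiSC libraries and 2 pEF libraries of strand-specific, rRNA-depleted total RNA, with no genetic change or treatment named for either group. The series text calls the samples biological replicates, but the labels used here do not say which line, culture, embryo or fetus each one came from, so the p-values measure the spread between these samples, which may in part be technical. The groups differ in cell type, embryonic stage and culture at once, and these cannot be told apart.

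An imprinted gene is expressed from only one parental copy, according to DNA methylation laid down in the egg or the sperm. Such genes lie in clusters, and in mouse the maternally expressed members tend to restrain fetal and placental growth whereas the paternally expressed ones tend to promote it. PEG10, SGCE, MEST, DLK1, PLAGL1 and PEG3 are paternally expressed in mouse, and PHLDA2, CDKN1C, IGF2R and GRB10 are maternally expressed in most mouse tissues. The values are in TPM, a level relative to all transcripts of a library and corrected for transcript length, which adds both parental copies together, so they carry no information on which copy was read.

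The libraries matched their labels. All 6 epiblast genes found by symbol, with LIN28A and NANOG among them, were higher in pgEpiSC, where their summed level was 415 to 1801 TPM, against 0.118 to 0.660 TPM in pEF. All 8 fibroblast genes found, collagens and PDGFRA among them, were lower in pgEpiSC, with sums of 34.4 to 73.7 TPM in pgEpiSC and 1422 to 2598 TPM in pEF. Of the trophoblast list, KRT8 and KRT18, keratins that epithelial cells also make, accounted for most of a sum of 55.6 to 334 TPM in pgEpiSC, against 1.63 to 3.44 TPM in pEF. Of its 5 tested genes 3 were higher in pgEpiSC (KRT7, KRT8 and KRT18), beside 18.0% of all tested genes, and 0 were lower. The other 2, the transcription factor genes TFAP2C and TEAD4, were not called as deposited. All 5, TFAP2C and TEAD4 included, were higher after the median-ratio scaling described below, beside 27.0%. The KRT7 call was lost without pgEpiSC replicate 3, at a log2 fold change of 1.56, and without pEF replicate 1 or 2, at 1.57 and 1.59. GATA2, GATA3, TFAP2A, ELF5, HAND1 and CDX2 were too low to be tested. The trophoblast-defining CDX2 averaged 0.0105 TPM in pgEpiSC and was listed at 0 in both pEF libraries. Hypoblast genes went both ways: of 4 tested, CER1 at 3.07 and FOXA2 at 1.84 were higher in log2 fold change, PDGFRA, also on the fibroblast list, at -3.79 and NID2 at -2.35 were lower, and their list summed to 10.2 to 11.7 TPM in pgEpiSC and to 21.0 to 24.4 TPM in pEF. The FOXA2 call was lost without either pEF library, at 1.85 and 1.84. PDGFRA and NID2 were tested in only 22 and 21 of the 26 alternative settings used below. No endothelial or blood gene of the lists used exceeded 0.875 TPM in any library. The listed genes summed to 157288, 320206, 209030 and 166208 TPM in pgEpiSC replicates 1 to 4, and to 93556 and 145611 TPM in pEF replicates 1 and 2. Replicates 2 and 3 of pgEpiSC therefore stood above replicates 1 and 4 across many genes, and each fold change is given as deposited and, where the call of a named gene differs, after scaling the libraries by the median ratio over all genes. Leaving out one pEF library leaves an arm of 1, which is then assumed to vary like the pgEpiSC libraries, so a call can be lost there with its fold change little altered.

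PEG10, SGCE and PHLDA2 were far lower in pgEpiSC than in pEF, each by 18-fold or more in mean TPM, and no other tested member differed by that much. Of the 9 members that passed the filter on low values (at least 1 TPM in 2 or more libraries), 3 were lower in pgEpiSC and 0 were higher at an adjusted p below 0.05 (limma on log2(TPM + 1), Benjamini-Hochberg adjustment over 10424 genes); 6 were not called. By the same rule 9.43% of all tested genes were lower and 18.0% were higher. The members' median log2 fold change was 0.38, beside 0.48 over all tested genes. After median-ratio scaling 4 members were lower (GRB10 was added) and 1, PEG3, was higher, where 30.9% of all tested genes were lower and 27.0% were higher, and the medians were 0.10 for the members and 0.02 for all tested genes.

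**Figure D1:**
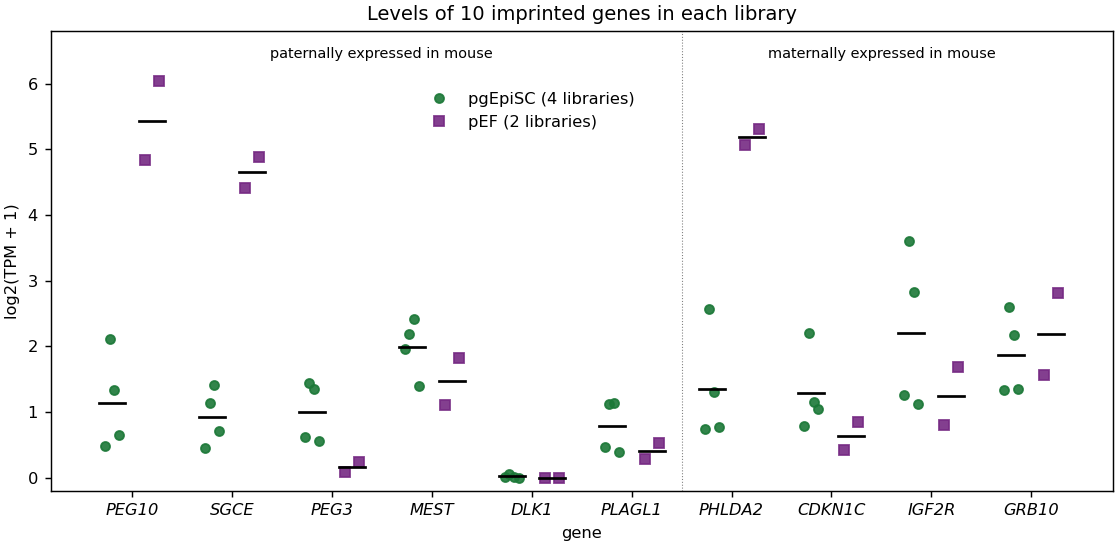
Level of each of the 10 members in each library as log2(TPM + 1), with the 4 pgEpiSC libraries (circles) left of the 2 pEF libraries (squares) and a line at each mean. PEG10, SGCE and PHLDA2 show no overlap between groups, with pgEpiSC libraries at 4.90 TPM or less and pEF libraries at 20.4 TPM or more, whereas of the other tested members PEG3 alone shows no overlap, with pgEpiSC higher.

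PEG10 is a retrotransposon-derived gene that mouse embryos need to form a placenta, and its neighbour SGCE encodes a sarcoglycan, a membrane protein of the complex that links the cytoskeleton to the extracellular matrix. PEG10 was read at 0.392, 3.30, 1.52 and 0.570 TPM in pgEpiSC replicates 1 to 4, against 27.5 and 64.7 TPM in pEF replicates 1 and 2. Every pgEpiSC library was far below both pEF libraries. The log2 fold change of PEG10 was -4.29 ± 0.58 (SE; limma adjusted p = 2.14e-07), and the mean was 1.45 ± 1.33 TPM in pgEpiSC (SD, n = 4) and 46.1 ± 26.2 TPM in pEF (SD, n = 2), 31.9-fold apart. SGCE had 0.360, 1.19, 1.66 and 0.635 TPM in pgEpiSC, against 20.4 and 28.6 TPM in pEF. The groups again did not overlap, and SGCE averaged 0.960 ± 0.579 TPM in pgEpiSC (SD, n = 4) and 24.5 ± 5.77 TPM in pEF (SD, n = 2). Its log2 fold change was -3.73 ± 0.56 (SE; limma adjusted p = 1.84e-06).

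PHLDA2, a small pleckstrin-homology protein that limits placental growth in mouse, showed the same direction. Its level was 0.677, 4.90, 1.48 and 0.700 TPM in pgEpiSC and 32.6 and 38.6 TPM in the pEF libraries. The highest pgEpiSC library, replicate 2, still lay well under the lower of the pEF libraries. The mean of PHLDA2 was 1.94 ± 2.01 TPM in pgEpiSC (SD, n = 4) and 35.6 ± 4.25 TPM in pEF (SD, n = 2), 18.4-fold apart, with a log2 fold change of -3.84 ± 0.57 (SE; limma adjusted p = 1.73e-06). Few genes had a fold change below theirs: 74 of the 10424 tested genes for PEG10, 105 for PHLDA2 and 115 for SGCE. All 3 were called lower under each of the 26 alternative settings, leaving out any one library included, with log2 fold changes between -5.88 and -2.91 for PEG10, between -5.35 and -2.30 for SGCE and between -5.30 and -2.59 for PHLDA2. In bulk RNA, fewer cells that express a gene and less RNA per cell cannot be told apart. The fibroblast markers moved with these 3 genes, and their part in the result was not tested.

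**Figure D2:**
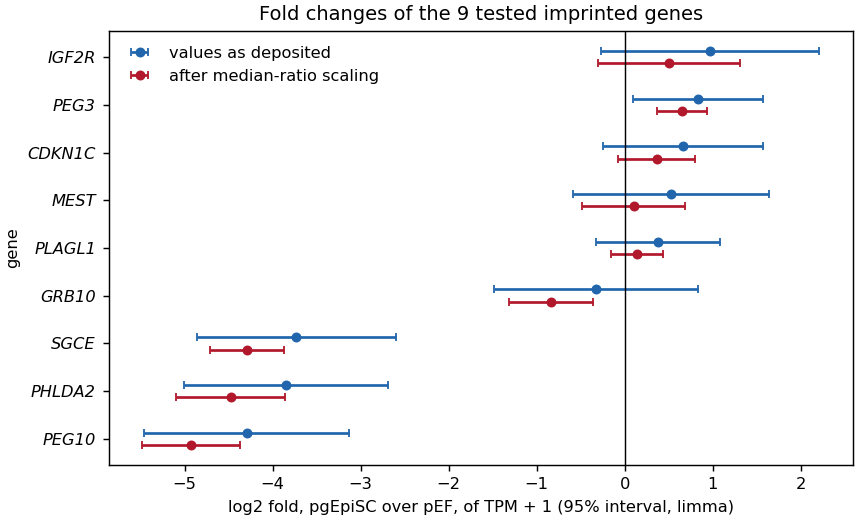
Log2 fold change of each tested member in pgEpiSC over pEF with its 95% interval, as deposited and after median-ratio scaling of the libraries. PEG10, PHLDA2 and SGCE lie at -3.73 or lower as deposited and lower still after scaling, whereas the remaining members lie between -0.83 and 0.97.

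CDKN1C, an inhibitor of cyclin-dependent kinases that restrains cell division and growth, lies in the same imprinted cluster as PHLDA2 and did not share its decrease. CDKN1C had 0.727, 3.60, 1.22 and 1.06 TPM in pgEpiSC, against 0.339 and 0.804 TPM in pEF. The groups overlapped, since pgEpiSC replicate 1 lay below pEF replicate 2. CDKN1C averaged 1.65 ± 1.32 TPM in pgEpiSC (SD, n = 4) and 0.571 ± 0.329 TPM in pEF (SD, n = 2). Its log2 fold change was 0.66 ± 0.45 (SE; limma adjusted p = 0.283), with a 95% interval from -0.25 to 1.57.

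IGF2R, the receptor that clears the growth factor IGF2 and carries lysosomal enzymes, was the member with the highest mean in pgEpiSC. It was read at 1.40, 11.1, 6.13 and 1.17 TPM in the pgEpiSC libraries, against 0.739 and 2.20 TPM in pEF. The pgEpiSC libraries split, with replicates 2 and 3 above both pEF libraries and replicates 1 and 4 between them. The log2 fold change of IGF2R was 0.97 ± 0.61 (SE; limma adjusted p = 0.244), and it was -0.05 without pgEpiSC replicates 2 and 3.

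GRB10 encodes an adaptor that binds insulin and IGF1 receptors and dampens their signal. Its level was 1.52, 5.07, 3.52 and 1.55 TPM in pgEpiSC, against 1.96 and 6.03 TPM in pEF. As deposited the groups overlapped, and the log2 fold change was -0.33 ± 0.58 (SE; limma adjusted p = 0.706). After median-ratio scaling GRB10 stood at 2.14 to 2.36 in all 4 pgEpiSC libraries, against 3.45 and 6.39 in pEF, and was lower by a log2 fold change of -0.83 ± 0.21 (SE; limma adjusted p = 0.00901). The scaled groups did not overlap, and 35.9% of all tested genes were lower without overlap on that scale. That scaled call was lost without pEF replicate 2, at -0.50, and as deposited the sign turned to 0.30 without the same library.

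Among the paternally expressed members, MEST, an enzyme-like protein of the alpha/beta hydrolase fold that supports growth in mouse, was not called. MEST had 2.88, 3.54, 4.37 and 1.64 TPM in pgEpiSC and 1.15 and 2.54 TPM in pEF, and the groups overlapped. Its mean was 3.11 ± 1.15 TPM in pgEpiSC (SD, n = 4) and 1.84 ± 0.977 TPM in pEF (SD, n = 2), with a log2 fold change of 0.53 ± 0.55 (SE; limma adjusted p = 0.500). In the RefSeq pig annotation (Sscrofa11.1) MEST overlaps COPG2, so how the authors' counting assigned reads there bears on both genes. COPG2 averaged 11.3 TPM in pgEpiSC and 5.54 TPM in pEF.

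PEG3, a large zinc-finger protein that regulates growth and maternal behaviour in mouse, was low in both cell types. It was read at 0.532, 1.70, 1.56 and 0.479 TPM in pgEpiSC, against 0.0563 and 0.182 TPM in pEF. No pgEpiSC library overlapped a pEF library, where 36.6% of all tested genes were likewise higher in pgEpiSC without overlap and 12.9% were lower without overlap, among them PEG10, SGCE and PHLDA2. PEG3 averaged 1.07 ± 0.652 TPM in pgEpiSC (SD, n = 4) and 0.119 ± 0.0889 TPM in pEF (SD, n = 2), and its log2 fold change of 0.83 ± 0.37 (SE; limma adjusted p = 0.0836) was not called as deposited. After median-ratio scaling it was 0.65 ± 0.12 (SE; limma adjusted p = 0.00258), again without overlap, which 34.5% of all tested genes then showed in that direction. The pseudocount of 1 understates fold changes at such levels, and PEG3 did not reach the filter without pgEpiSC replicate 2 or without replicate 3.

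PLAGL1, a zinc-finger transcription factor with a growth-restraining role in cultured cells, had 0.384, 1.18, 1.21 and 0.308 TPM in pgEpiSC and 0.219 and 0.436 TPM in pEF. The groups overlapped, and the log2 fold change of PLAGL1 was 0.38 ± 0.35 (SE; limma adjusted p = 0.438). DLK1, a membrane protein of the Delta/Notch family made by many fetal tissues, was the one member that failed the filter. It was listed at 0.00379, 0.0338, 0.00985 and 0 TPM in pgEpiSC replicates 1 to 4 and at 0 in both pEF libraries. DLK1 was thus at or near 0 in every library, and no fold change is given for it.

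The order of the members by mean level differed between the cell types. In pgEpiSC it ran IGF2R, MEST, GRB10, PHLDA2, CDKN1C, PEG10, PEG3, SGCE, PLAGL1 and DLK1. Only GRB10 over PHLDA2 and PLAGL1 over DLK1 held in all 4 pgEpiSC libraries, and the other neighbours in that order changed places in 1 or 2 of them. In pEF the order was PEG10, PHLDA2, SGCE, GRB10, MEST, IGF2R, CDKN1C, PLAGL1, PEG3 and DLK1, and it held in both libraries at every step but the first, PEG10 over PHLDA2, which held in 1.

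Placed among all listed genes of its own library, PEG10 was above 52.4% to 64.2% of them in pgEpiSC, against 97.7% and 98.5% in pEF. SGCE was above 51.0% to 58.3% of listed genes in pgEpiSC and above 96.9% and 96.7% in pEF, and PHLDA2 above 56.2% to 70.6% in pgEpiSC and above 98.1% and 97.6% in pEF. These ranks do not depend on how libraries are scaled, and for these 3 genes they placed every pgEpiSC library near the middle of the list and both pEF libraries near its top. PEG3 moved the other way, above 54.6% to 57.1% of genes in pgEpiSC and above 40.0% and 43.3% in pEF. GRB10 ranked above 70.5% to 71.3% of genes in pgEpiSC, a narrow band, and above 73.9% and 83.6% in pEF.

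Together the 10 members summed to 8.87, 35.7, 22.7 and 8.11 TPM in pgEpiSC and to 85.0 and 144 TPM in pEF. The groups did not overlap, and the log2 difference was -2.83, at a p of 0.0667 in the exact two-sided permutation test, which is the smallest p that its 15 splits of 4 against 2 libraries can give, so p < 0.05 was out of reach. PEG10, SGCE and PHLDA2 made up 16.1% to 26.3% of the sum in pgEpiSC, against 94.7% and 91.5% in pEF. The other 7 members summed to 7.45, 26.3, 18.0 and 6.21 TPM in pgEpiSC and to 4.47 and 12.2 TPM in pEF, with overlap. IGF2R alone contributed 14.4% to 31.2% of the members' TPM in pgEpiSC, and 0.869% and 1.53% in pEF.

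**Figure D3:**
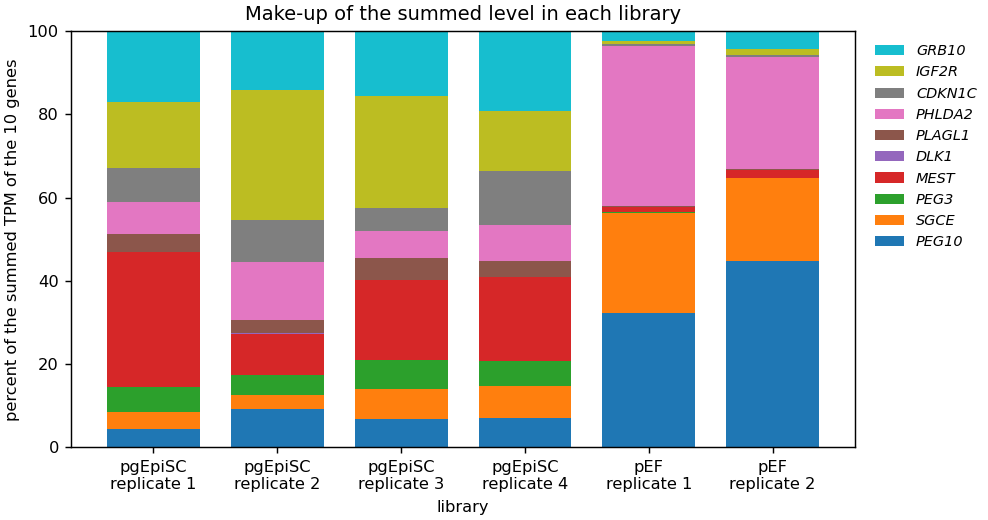
Share of each member in the members' summed TPM, in percent, for each library, with pgEpiSC libraries left of pEF libraries. In pEF the 3 genes PEG10, PHLDA2 and SGCE fill 94.7% and 91.5% of the bar, and in pgEpiSC no member exceeds 32.5%.

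Ratios between members within a library do not depend on scaling. PEG10 and SGCE are divergent neighbours under shared imprinting control in mouse, and the ratio of PEG10 to SGCE was 1.09, 2.78, 0.919 and 0.897 in pgEpiSC, against 1.35 and 2.26 in pEF. The groups overlapped, and the log2 difference, with 0.1 TPM added to each gene, was -0.49 (exact two-sided permutation p = 0.4). It was -0.12 without pEF replicate 2, -0.86 without pEF replicate 1 and -0.85 without pgEpiSC replicate 2. PHLDA2 and CDKN1C behaved otherwise, with PHLDA2 to CDKN1C ratios of 0.931, 1.36, 1.22 and 0.658 in pgEpiSC and 96.3 and 48.1 in pEF. The log2 difference of that ratio was -5.80 (exact two-sided permutation p = 0.0667, the smallest possible; 0.1 after adjustment over the 3 ratios compared). Both genes were of like level in every pgEpiSC library, whereas in both pEF libraries PHLDA2 exceeded CDKN1C many times over.

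The summed level of the 6 paternally expressed members over that of the 4 maternally expressed ones was 1.05, 0.443, 0.836 and 0.810 in pgEpiSC, against 1.38 and 2.02 in pEF. The groups did not overlap, and the log2 difference was -1.16 (exact two-sided permutation p = 0.0667; 0.1 after adjustment over the 3 ratios). That ratio rested on PEG10: without it the difference was -0.05 (exact permutation p = 1.0), and without PHLDA2 it was -3.88. Without GRB10, whose expressed copy depends on the tissue in mouse, it was -0.78 (exact permutation p = 0.267).

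**Figure D4:**
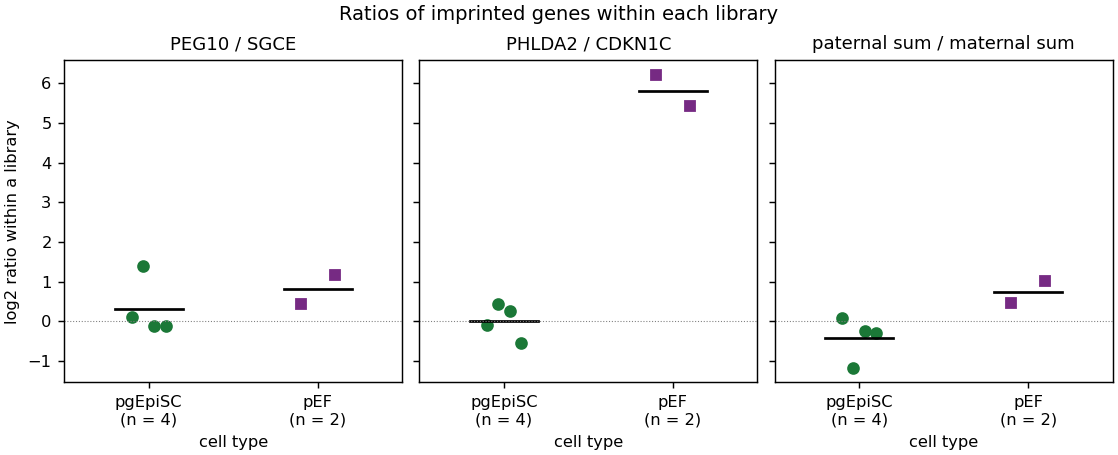
Ratios between members within each library on a log2 axis, with 0.1 TPM added to each single gene, for PEG10 to SGCE, PHLDA2 to CDKN1C and paternally to maternally expressed members, pgEpiSC left of pEF and a line at each mean. The PHLDA2 to CDKN1C ratio lies between -0.54 and 0.43 in pgEpiSC and at 6.22 and 5.42 in pEF, and the PEG10 to SGCE ratio overlaps between groups.

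The genes next to PEG10 and SGCE were examined by RefSeq gene order (Sscrofa11.1), in a window chosen after earlier values had been seen. The window held 6 listed genes on each side of SGCE, with PEG10 among them. Of 8 tested neighbours 5 were lower in pgEpiSC, 0 were higher and 3 were not called, beside 9.43% lower and 18.0% higher among all tested genes. After median-ratio scaling 5 were lower, 1 was higher and 2 were not called, beside 30.9% and 27.0%. TFPI2, a secreted serine protease inhibitor that is imprinted in mouse placenta, averaged 0.158 ± 0.160 TPM in pgEpiSC (SD, n = 4) and 64.2 ± 12.4 TPM in pEF (SD, n = 2), with a log2 fold change of -5.81 ± 0.55 (SE; limma adjusted p = 3.73e-11). TFPI2 was below 1 TPM in every pgEpiSC library, so it was not tested without pEF replicate 1 or 2. COL1A2, a chain of type I collagen and one of the fibroblast markers above, had a log2 fold change of -7.31 ± 0.56, and GNG11, a G-protein gamma subunit, one of -3.30 ± 0.57. On the far side of PEG10 the paraoxonase genes PON2 and PON1 were lower by log2 fold changes of -3.67 ± 0.55 and -0.97 ± 0.35, and the PON1 call was lost without pgEpiSC replicate 1 or 4, at -0.89 and -0.91.

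The decrease was not shared by every gene of that stretch. CASD1, the gene beside SGCE, averaged 3.70 TPM in pgEpiSC and 2.38 TPM in pEF, and its log2 fold change of 0.43 ± 0.56 turned to -0.06 after median-ratio scaling. PPP1R9A, a neuronal actin-binding protein gene beside PEG10, averaged 3.93 TPM in pgEpiSC and 1.11 TPM in pEF, and was not called as deposited (log2 fold change 1.08 ± 0.56, SE; limma adjusted p = 0.151). Its groups did not overlap, and after median-ratio scaling PPP1R9A was called higher at 0.63 ± 0.22 (SE; limma adjusted p = 0.0401). BET1, a vesicle transport gene, averaged 2.85 TPM in pgEpiSC and 3.60 TPM in pEF.

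Neighbours of the other members were counted in the same way, though only 8 were listed around GRB10 and 7 around DLK1. Of 44 tested neighbours in the other 7 windows, 7 were higher in pgEpiSC, 0 were lower and 37 were not called as deposited, beside 18.0% and 9.43% of all tested genes called higher and lower; after median-ratio scaling 13 were higher, 8 were lower and 23 were not called, beside 27.0% and 30.9%. Whether neighbours of PEG10 and SGCE were lower more often than those of the other members was not tested. Beside PHLDA2, NAP1L4, a histone chaperone gene of the same cluster, averaged 21.8 ± 9.26 TPM in pgEpiSC (SD, n = 4) and 7.99 ± 2.95 TPM in pEF (SD, n = 2), a log2 fold change of 1.30 ± 0.52 (SE; limma adjusted p = 0.0589). Its groups did not overlap. NAP1L4 was called higher after median-ratio scaling, at 0.70 ± 0.23 (SE; limma adjusted p = 0.0270), and as deposited without pgEpiSC replicate 1 or 2, at 1.46 and 1.06. Beside PHLDA2 itself no tested gene of the window was called lower as deposited. CD81, a tetraspanin gene, and CTTN, the cortactin gene, had log2 fold changes of -0.90 ± 0.57 and -0.74 ± 0.55 as deposited, with limma adjusted p-values of 0.242 and 0.326. Both were called lower after median-ratio scaling, CD81 at -1.54 ± 0.26 and CTTN at -1.37 ± 0.27 (SE; limma adjusted p = 0.00140 and 0.00313), and as deposited without pgEpiSC replicate 2, at -1.34 and -1.19.

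**Figure D5:**
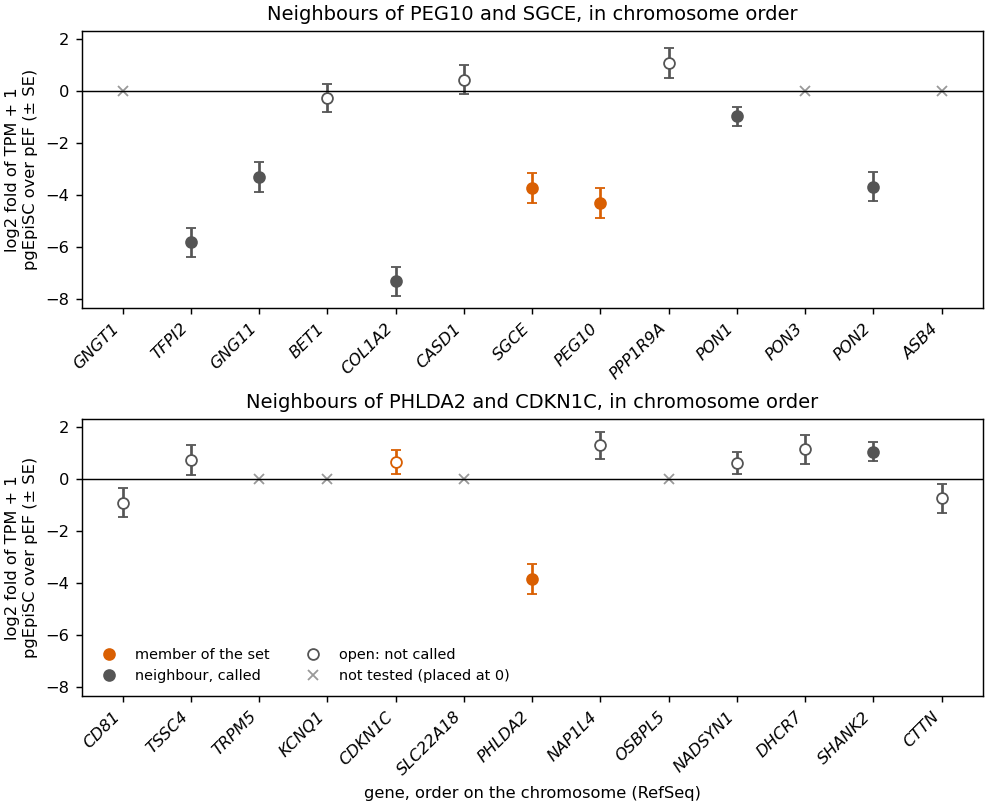
Log2 fold change in pgEpiSC over pEF of the genes in RefSeq order around PEG10 and SGCE and around PHLDA2 and CDKN1C, with SE as bars, open points for genes not called and crosses at 0 for genes not tested. Around PEG10 and SGCE, TFPI2, GNG11, COL1A2 and PON2 lie at -3.30 or lower with CASD1 and PPP1R9A above 0 between them as deposited (CASD1 at -0.06 after median-ratio scaling), and around PHLDA2 no other gene was called lower as deposited (CD81 and CTTN were after median-ratio scaling, at -1.54 and -1.37).

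Genes with profiles most like those of 2 members were picked by Euclidean distance of log2(TPM + 1) over the 6 libraries. TTYH3 lay nearest to IGF2R, at 0.34, followed by ABCG2A at 0.61 and EPHB4 at 0.62. WFDC1 lay nearest to PEG10, at 0.65, followed by PHLDA2 at 0.94 and FBN1 at 0.97. PHLDA2 thus came second among all tested genes with a symbol.

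Beyond the 10 members, 32 of 48 other genes known to be imprinted in human or mouse were found by symbol, and 17 passed the filter. The 16 not found included IGF2, H19, MEG3, NNAT, SNRPN and GNAS, so the counts do not cover these genes. In pgEpiSC 2 of the 17 were higher, 3 lower and 12 not called, beside 18.0% and 9.43% of all tested genes called higher and lower. Their median log2 fold change was 0.29, beside 0.48 over all tested genes. After median-ratio scaling 4 were higher, 5 lower and 8 not called, beside 27.0% and 30.9%. IMPACT, a regulator of the cellular response to amino acid shortage, averaged 17.0 ± 5.0 TPM in pgEpiSC (SD, n = 4) and 3.79 ± 0.230 TPM in pEF (SD, n = 2), with a log2 fold change of 1.87 ± 0.52 (SE; limma adjusted p = 0.00627). ZDBF2, a zinc-finger gene, averaged 1.88 ± 1.46 TPM in pgEpiSC and 0.190 ± 0.197 TPM in pEF and was higher by 1.15 ± 0.44. Both calls were lost without pEF replicate 1 or 2, at 1.82 and 1.92 for IMPACT and at 1.32 and 0.98 for ZDBF2, and ZDBF2 did not reach the filter without pgEpiSC replicate 2 or 3. The lower genes were TFPI2, the matrix proteoglycan gene DCN at -2.76 ± 0.55 and the receptor tyrosine kinase gene AXL at -2.50 ± 0.57, the AXL call being lost without pEF replicate 2, at -1.99.

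Of 13 tested genes that set or guard imprints, 7 were higher in pgEpiSC, 0 lower and 6 not called. Among all tested genes 18.0% were called higher and 9.43% lower. The median log2 fold change of this list was 1.73, beside 0.48 over all tested genes. After median-ratio scaling 11 were higher, 1 lower and 1 not called, beside 27.0% higher and 30.9% lower among all tested genes. DNMT3B, a de novo DNA methyltransferase and itself one of the epiblast markers, averaged 263 ± 254 TPM in pgEpiSC (SD, n = 4) and 0.220 ± 0.206 TPM in pEF (SD, n = 2), a log2 fold change of 7.33 ± 0.55 (SE; limma adjusted p = 4.84e-14). HELLS, a chromatin remodeller needed for DNA methylation, was higher by 4.30 ± 0.52. DNMT3A, the maintenance methyltransferase DNMT1, its partner UHRF1, the histone methyltransferase EHMT2 and TRIM28, the co-repressor recruited to imprints, were higher by 1.73 to 1.92. Each of these 5 calls was lost without pEF replicate 1, at 1.61 for DNMT3A, 1.36 for DNMT1, 1.36 for TRIM28, 1.19 for UHRF1 and 1.61 for EHMT2. Without pEF replicate 2 the calls of DNMT3A, UHRF1 and EHMT2 were lost at 2.22, 2.32 and 1.85, and without pgEpiSC replicate 3 those of UHRF1 and EHMT2 at 1.68 each. ZFP57, the zinc-finger protein that marks imprints in mouse, was listed at 0.0195 to 0.670 TPM in pgEpiSC, against 0.0124 and 0.0497 TPM in the pEF libraries, and did not pass the filter.

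Among 9 tested partners of IGF2R and GRB10 in insulin-like growth factor signalling, 2 were higher in pgEpiSC, 1 lower and 6 not called. After median-ratio scaling 3 were higher, 4 lower and 2 not called. The shares of all tested genes called higher and lower were 18.0% and 9.43% as deposited, and 27.0% and 30.9% scaled. IGF2 was not found by symbol and is not in these counts. IGF2BP1, an mRNA-binding protein of early embryos, was higher by a log2 fold change of 2.93 ± 0.58, with 32.3 ± 27.9 TPM in pgEpiSC (SD, n = 4) and 2.49 ± 1.18 TPM in pEF (SD, n = 2). GRB14, an adaptor of the same family as GRB10, averaged 2.61 ± 0.958 TPM in pgEpiSC and 0.0185 ± 0.00621 TPM in pEF and was higher by 1.79 ± 0.47. IGF1, a ligand, was lower by -1.62 ± 0.49 on the log2 scale. The GRB14 call was lost without pEF replicate 1 or 2, at 1.78 and 1.79, and that of IGF1 without pEF replicate 1, at -0.46.

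Among cell cycle genes related to CDKN1C, 4 of 7 tested were lower in pgEpiSC, 1 was higher and 2 were not called. Among all tested genes 9.43% were called lower and 18.0% higher. After median-ratio scaling 5 were lower, 1 higher and 1 not called, beside 30.9% lower and 27.0% higher among all tested genes. CDKN1A, a sister inhibitor of CDKN1C, averaged 10.2 ± 15.4 TPM in pgEpiSC (SD, n = 4) and 185 ± 59.0 TPM in pEF (SD, n = 2), a log2 fold change of -4.91 ± 0.64 (SE; limma adjusted p = 8.70e-08). The inhibitors CDKN2A, CDKN1B and CDKN2D were lower by -1.99 ± 0.35, -1.85 ± 0.56 and -1.46 ± 0.49 on the log2 scale, and cyclin E1 (CCNE1), whose kinase complex CDKN1A and CDKN1B inhibit, was higher by 1.94 ± 0.58. CDKN1C was not called on either scale, whereas these 4 inhibitors were named because they were called lower. CDKN2A was tested in only 21 of the 26 alternative settings. Without pEF replicate 1 or 2 the calls of CCNE1 (1.81 and 2.06), CDKN1B (-2.34 and -1.37) and CDKN2D (-1.77 and -1.16) were lost, and that of CDKN2D also without pgEpiSC replicate 1 or 4, at -1.30 and -1.35.

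In the sarcoglycan complex around SGCE, 1 of 4 tested partners was lower in pgEpiSC, 0 were higher and 3 were not called. After median-ratio scaling 3 were lower, 0 higher and 1 not called. Beside these and the counts below, 9.43% of all tested genes were lower and 18.0% higher, and 30.9% and 27.0% when scaled. The lower one as deposited was SSPN, sarcospan, at 0.0168 ± 0.00635 TPM in pgEpiSC (SD, n = 4) and 6.19 ± 2.86 TPM in pEF (SD, n = 2), a log2 fold change of -2.76 ± 0.41 (SE; limma adjusted p = 1.27e-06). SSPN passed the filter only through the pEF libraries, so it was not tested without pEF replicate 1 or 2. Of the Notch pathway genes related to DLK1, 1 of 6 tested was higher, the ligand gene DLL1 at 1.18 ± 0.43, 2 were lower, the receptor gene NOTCH2 at -1.67 ± 0.60 and the target gene HES1 at -1.44 ± 0.55, and 3 were not called. After median-ratio scaling 1 Notch gene was higher, 4 were lower and 1 was not called. Without pEF replicate 1 or 2 the calls of DLL1 (1.03 and 1.32), NOTCH2 (-2.34 and -1.0) and HES1 (-1.70 and -1.18) were lost. That of NOTCH2 was also lost without pgEpiSC replicate 1 or 4, at -1.45 and -1.38, and that of HES1 without pgEpiSC replicate 3 or 4, at -1.32 and -1.40. Among relatives of PEG10 derived from retrotransposon gag genes, 1 was tested and not called, and of the zinc-finger relatives of PLAGL1 and PEG3, 2 were tested and neither was called as deposited, whereas both were higher after median-ratio scaling.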

How the data were processed

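RNA of 4 pgEpiSC and 2 pEF samples was measured. The values are TPM as the authors deposited them in one table of gene IDs. Symbols were matched to those IDs from a separate list of gene names, so a gene not found by symbol may still be present under its ID. The submitters' processing notes name STAR 2.6.0c together with kallisto 0.44.0. Which tool made which values, from which build and annotation, is not given in the sources used here. TPM keeps no read depth, so no counting interval can be given. All 6 columns matched sample titles, and 2 rows that share a symbol were summed, leaving 20131 genes. Genes with at least 1 TPM in 2 or more libraries were kept, log2(TPM + 1) was fitted with limma 3.58.1 (R 4.3.3, eBayes with trend, group the only term), and p-values were adjusted by Benjamini-Hochberg over 10424 genes; the threshold was 0.05. Fold changes are on that log2(TPM + 1) scale, pgEpiSC over pEF, and understate changes of low genes. This procedure was checked on simulated data with independent noise. The pass marks concerned large changes and unchanged genes, so the check does not vouch for small fold changes. Sums and ratios were tested by exact permutation over the 15 splits (Python 3.11.15, scipy 1.17.1). In the second scaling each library was divided by its median ratio to the genes' geometric means, with factors of 0.697, 2.15, 1.61 and 0.722 in pgEpiSC and 0.569 and 0.944 in pEF. Other pseudocounts, filters, scalings, limma options, a replicate block and leaving out each library were the alternatives. Members and lists were chosen with earlier results of these data known. Genes were named by rule: all members, up to 4 called genes of each list by size of fold change and up to 2 against its majority, and the 3 nearest profiles; others, chosen after their values were seen, are the neighbours GNG11, CASD1, PPP1R9A, BET1, NAP1L4, CD81 and CTTN, and TRIM28, UHRF1, EHMT2, COPG2, CDX2, ZFP57 and CDKN2D. Gene order and overlap came from RefSeq Sscrofa11.1; sequences were not used here.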

Additional observations from a re-analysis of the deposited data

Results flagged for a closer look

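In 2 of 14 groups of 4 libraries checked, one library stood apart from the other three by Dixon's test at its 95% critical value, which chance passes in about 1 of 20 groups. Both were pgEpiSC replicate 2. Its CDKN1C level was 3.60 TPM, against 0.727 to 1.22 TPM in the other pgEpiSC libraries. After median-ratio scaling, with a factor of 2.15 for that library, CDKN1C stood at 1.67 there, against 0.755 to 1.47 in the others. Its log2 ratio of PEG10 to SGCE was 1.40, against -0.13 to 0.10 in the other pgEpiSC libraries.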

How the results depend on the processing

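PEG10, SGCE and PHLDA2 were called lower in pgEpiSC in each of 26 alternatives, with highest limma adjusted p-values of 0.0199, 0.00929 and 0.0239. The number of members called lower was 3 to 4 and of those called higher 0 to 1, the 1 being PEG3, with a pseudocount of 0.1, under the 3 rescalings and in most scaled fits. Genes called higher, 1874 as deposited, numbered 967 with a pseudocount of 5, 717 with no filter, 1185 at a mean of at least 5 TPM, 2812 with median-ratio scaling, 3662 with quantile normalization, and 2864 with median-ratio scaling without pgEpiSC replicates 2 and 3. Genes called lower, 983 as deposited, numbered 368 at a mean of at least 5 TPM, 3222 with median-ratio scaling, 2924 rescaled to 1000000, 2722 with quantile normalization, 1616 with library weights and 2624 with the replicate block and median-ratio scaling. Without pgEpiSC replicates 2 and 3, an alternative chosen after seeing the data, genes called lower numbered 2395, and 3023 when scaled as well. Leaving out one library gave 360 to 2257 higher and 194 to 1425 lower genes as deposited, and 1685 to 2562 higher and 2142 to 3225 lower genes when scaled, of which 2937, 2990, 3006 and 2263 lower genes came without pgEpiSC replicate 1, 3 or 4 or pEF replicate 1.

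Of the genes whose fold change is printed in the text, 4 changed sign under an alternative. IGF2R was at -0.049 without pgEpiSC replicates 2 and 3, and GRB10 between -0.95 and 0.30 as deposited with one library left out. MEST was at -0.030 rescaled to 1000000, and at -0.068 and -0.093 scaled without pgEpiSC replicate 1 or pEF replicate 1. CASD1 was at -0.059 with median-ratio scaling, -0.23 rescaled to 1000000, -0.18 with the block and scaling, and, scaled, at -0.084, -0.050, -0.14 and -0.29 without pgEpiSC replicate 1, 3 or 4 or pEF replicate 2. The cause was not tested.

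The replicate block over the 2 shared numbers called 2204 higher and 893 lower genes, with 0 and 3 members. The labels give those numbers no shared origin. Same-numbered libraries deviated together at correlations of 0.098 and 0.172, whereas pgEpiSC replicate 4 and pEF replicate 1, of unlike number, did so at 0.142. With 2 pEF libraries their deviations mirror each other, so each correlation recurs with the opposite sign. The values were also not scaled between libraries, so this check cannot decide whether same-numbered libraries share an origin. With 2 pEF libraries, small differences of low members such as PLAGL1 and PEG3 are hard to resolve, and TPM gives no depth.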
